A study of Mus musculus with 16 samples.

Results

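The netrin-G, Slit and Robo guidance genes were measured in single nuclei of the mouse dentate gyrus (DG). They were chosen by gene symbol, as the ligands Ntng1, Ntng2, Slit1, Slit2 and Slit3 and the receptors Lrrc4c, Robo1 and Robo2, and the rule uses no expression value. All 8 were found in each of the 8 count matrices, among 32285 genes. The nuclei came from 4 wild-type mice (WT, genotype VV in the labels) and 4 mice homozygous for the V321L change in neuregulin 1 (Nrg1, genotype LL), with 2 females and 2 males in each group. Each mouse gave 1 multiome library, in which RNA molecules and open chromatin are read from the same nucleus, made from microdissected frozen DG. The labels name no agent or drug. The age of these mice and their strain are not given in the sources used here. V321L changes a single amino acid, and both alleles are carried by every cell of the mouse, so the RNA level of Nrg1 could not check the genotype labels. The series asked how granule cells (GCs) of the DG differ from each other and how V321L alters them.

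Netrin-Gs are relatives of the netrins that are tethered to the surface of axons by a lipid anchor and do not bind the classical netrin receptors. Netrin-G1, the product of Ntng1, binds the leucine-rich repeat protein NGL-1, the product of Lrrc4c, on the dendrites of the target neuron, and netrin-G2 (Ntng2) binds the related NGL-2 (Lrrc4). Slits are large secreted proteins that repel growing axons and migrating neurons through Robo receptors. In the hippocampus these families are known for guiding axons and for sorting synapses along dendrites.

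The genes lie on 6 chromosomes of the mouse genome (mm10, which is GRCm38). In RefSeq GRCm38.p6, Ntng1 (NCBI gene 80883) spans chr3:109780050-110149972 and Ntng2 (171171) spans chr2:29194726-29248099. Lrrc4c (241568) spans chr2:96318169-97631672. Slit1 (20562) spans chr19:41597824-41747275, Slit2 (20563) spans chr5:47981291-48307735 and Slit3 (20564) spans chr11:35121456-35708507. Robo1 (19876) spans chr16:72027518-73047491 and Robo2 (268902) spans chr16:73891976-75447443. Spans thus ran from 53374 bases for Ntng2 to 1555468 bases for Robo2.

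Promoter sequences were printed for a ligand and a receptor that went in opposite directions within GCs (Ntng1 and Robo1), for the receptor of netrin-G1 (Lrrc4c), and for a Slit that was higher in GCs than in the other classes (Slit3). Slit1 had no entry among the promoters used here. They run from 250 bases before to 50 bases after a RefSeq start site (GRCm38.p6), 5′ to 3′ on the strand of the gene, and capitals mark each CG, which reads the same on both strands. Slit3 is from the + strand at chr11:35121206-35121505, Ntng1 from the - strand at chr3:110143423-110143722, Lrrc4c from the + strand at chr2:96317919-96318218 and Robo1 from the + strand at chr16:72662899-72663198.
Slit3: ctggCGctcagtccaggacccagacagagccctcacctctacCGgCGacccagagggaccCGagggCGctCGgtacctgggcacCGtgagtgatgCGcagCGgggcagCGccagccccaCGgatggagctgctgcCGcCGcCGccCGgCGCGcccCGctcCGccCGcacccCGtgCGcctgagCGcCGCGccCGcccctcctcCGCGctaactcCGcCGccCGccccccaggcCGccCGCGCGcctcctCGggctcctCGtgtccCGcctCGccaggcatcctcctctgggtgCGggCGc
Ntng1: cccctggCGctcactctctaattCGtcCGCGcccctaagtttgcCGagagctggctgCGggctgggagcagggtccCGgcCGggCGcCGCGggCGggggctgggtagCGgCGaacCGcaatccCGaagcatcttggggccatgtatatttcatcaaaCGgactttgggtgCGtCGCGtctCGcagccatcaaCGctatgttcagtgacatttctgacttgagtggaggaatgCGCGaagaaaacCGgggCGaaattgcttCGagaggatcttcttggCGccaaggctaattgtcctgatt
Lrrc4c: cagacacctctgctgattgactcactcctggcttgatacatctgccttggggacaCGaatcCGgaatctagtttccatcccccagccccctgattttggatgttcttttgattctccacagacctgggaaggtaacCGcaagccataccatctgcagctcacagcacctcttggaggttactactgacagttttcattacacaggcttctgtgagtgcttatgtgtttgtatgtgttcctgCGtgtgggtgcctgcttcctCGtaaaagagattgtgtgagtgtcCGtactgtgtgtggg
Robo1: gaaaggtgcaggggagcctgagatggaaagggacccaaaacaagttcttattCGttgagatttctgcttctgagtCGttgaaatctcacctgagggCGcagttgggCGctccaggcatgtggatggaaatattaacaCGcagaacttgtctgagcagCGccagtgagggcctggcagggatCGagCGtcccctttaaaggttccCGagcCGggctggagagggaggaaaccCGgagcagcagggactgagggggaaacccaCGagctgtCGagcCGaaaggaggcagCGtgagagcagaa

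The Slit3 window held 41 CG, as many as or more than in all but 3.46% of the 32851 RefSeq promoters of the same length, whose median was 7. Ntng1 held 28 CG (14.2% of promoters had as many) and Robo1 held 15 (34.6%). Lrrc4c held only 6 (56.4%). Among the members not printed, Slit2 had 30 CG, Ntng2 had 6, and the 3 Robo2 promoters had 17, 9 and 5. CG content is a description of these windows and no test was made of it. An accessible-chromatin peak covered at least 150 bases of the Slit3 window in 8 of 8 libraries, of the Lrrc4c window in 7, of the Robo1 window in 6 and of the Ntng1 window in 4. For the Ntng2 window, which is not printed, this was so in 0 libraries.

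After the filters 16406 nuclei remained. Of these, 161 barcodes occurred in more than 1 library. The libraries differed in depth by genotype: median RNA molecules (UMIs) per nucleus were 1096 to 1923 in the 4 WT libraries and 2680 to 4146 in the 4 V321L libraries, and median mitochondrial shares were 0.0693% to 0.128% and 0.39% to 1.17%. Nuclei were sorted into classes by fixed markers that did not include the 8 genes, and each class name stands for nuclei that are like that type by these markers. The marker profiles of the classes were fitted separately in WT and V321L nuclei. What this did to comparisons between the genotypes was not tested. The granule class held 6635 WT and 4096 V321L nuclei, and all 10 of its markers were detected in both genotypes. Of these markers 6 in WT and 7 in V321L mice were highest in the granule class, and the rest were not. In the CA3 type class of both genotypes, and in the astrocyte or radial glia class of WT mice, all 6 markers were detected, but none was among the 10 leading genes. Of the CA3 type markers 3 in WT and 4 in V321L mice were highest in that class. Whether the CA3 type class also holds mossy cells was not tested. No class could be named for 16.6% of WT and 8.71% of V321L nuclei. Levels are given as CPM, UMIs of a gene per 1000000 UMIs of that class in that mouse, and are compared between classes or mice, not between genes.

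Genes of the abundant GCs were also counted in other nuclei. For many levels outside the granule class, the level that carry-over of granule RNA would give is stated. Levels given without it are not free of carry-over. The estimate was 339.5 CPM beside 1674 for Robo2 in WT GABAergic nuclei and 416.5 beside 1768 for Lrrc4c in WT oligodendrocytes. For Slit3 in V321L CA1 type nuclei it was 210 CPM beside 930. Carry-over was estimated from 7 granule genes (Cntnap5a, Cnih3, C1ql3, Arsj, Cemip, Htr4 and Gpc4) that were chosen after the data had been seen. In oligodendrocyte nuclei it came to 24.0% to 76.2% of the granule level in WT mice and 1.14% to 8.18% in V321L mice. For astrocyte or radial glia nuclei the ranges were 7.94% to 31.4% and 2.95% to 6.35%. Carry-over was thus larger in WT mice in both classes, without overlap in oligodendrocytes and astrocytes. A class that expresses any of the 7 genes itself would have its carry-over overstated, which was not tested. For some genes the estimate was above the whole level of the class. Slit3 in WT mice was at 88.3 CPM against an estimate of 403 in GABAergic nuclei, and at 106 against 248.5 in OPC nuclei. The estimate was thus too high for Slit3 there, and levels near or under an estimate in these classes are read with that limit. Within the granule class, free RNA would add a mean of at most 31.8 CPM to any member.

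Ntng1, the netrin-G1 ligand, was found in GCs and GABAergic nuclei. Its CPM in granule nuclei was 641.5, 604, 715 and 706 in WT mice F1, F2, M1 and M2, and 692, 705, 812 and 730 in the V321L mice of the same numbers. The 2 genotypes overlapped. GABAergic nuclei held 467, 618, 992 and 431 CPM in WT and 678, 294, 279 and 200.1 CPM in V321L mice, while carry-over would give 165 and 198 CPM on average. V321L M2 was the mouse under its own carry-over level of 242.8 CPM. CA3 type nuclei held 30.9 ± 9.84 CPM in WT mice (SD, n = 4), against 43.8 from carry-over, so Ntng1 was not detectable there above the background. The 10 CA1 type nuclei of WT F2 held 677 CPM against a carry-over of 65.3 CPM, while those of V321L mice held 3.15 to 164.7 CPM against a mean of 118. In WT oligodendrocytes the mean was 269 CPM against a carry-over of 289. When nuclei that resembled mixtures with GCs were left out, 49 WT oligodendrocyte nuclei held 0 Ntng1 UMIs of 48484, which allows up to 61.9 CPM, and 51 WT astrocyte nuclei held 0 of 66972, which allows up to 44.8 CPM.

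Ntng2, the netrin-G2 ligand, was sparse in WT GCs and higher in V321L GCs. Its CPM was 31.4, 37.8, 32.2 and 31.8 in WT F1, F2, M1 and M2, and 106, 126, 120.5 and 93.4 in the V321L mice. Every V321L value stood above every WT value. Outside the granule class, Cajal-Retzius nuclei of V321L mice, the early-born neurons of the outer molecular layer, held 53.8, 122, 534 and 479 CPM in F1, F2, M1 and M2, a wide spread over 44 nuclei. GABAergic nuclei held 1 Ntng2 UMI in all 4 WT libraries together. CA3 type nuclei held 25.7 ± 10.6 CPM in WT mice (SD, n = 4) and 68.7 ± 20.5 in V321L mice (SD, n = 3), above carry-overs of 2.25 and 6.44 CPM.

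Lrrc4c, which encodes the netrin-G1 receptor NGL-1, was highest in oligodendrocyte precursor (OPC) nuclei. In OPC nuclei its CPM was 9417, 9637, 7338 and 9332 in WT F1, F2, M1 and M2, and 6039, 6295, 7129 and 6363 in V321L mice, while carry-over would give 145 and 45.6 CPM on average. Astrocyte or radial glia nuclei held 2903 ± 262 CPM in WT and 1292 ± 284 in V321L mice (means ± SD of 4 mice). Oligodendrocyte nuclei held 1768 ± 526 and 1029 ± 130 CPM, and GABAergic nuclei 1546 ± 427 and 1966 ± 359. Granule nuclei held less, with 991.5, 1036, 943 and 935 CPM in WT and 640.3, 638, 673 and 580.1 CPM in V321L mice, and here the genotypes did not overlap. The OPC level was not lower without the mixtures: 38 WT OPC nuclei held 548 Lrrc4c UMIs, or 10180 CPM (exact Poisson 95% interval 9345 to 11070, counting error only). Among the other neurons, CA3 type nuclei held 564 ± 200.1 CPM of Lrrc4c in WT mice (SD, n = 4) against a carry-over of 66.4 CPM, and Cajal-Retzius nuclei 1888 ± 828 in V321L mice (SD, n = 4) against 68.6 CPM. CA1 type nuclei varied widely in V321L mice, from 572 to 6241 CPM. In microglia, 20 WT and 47 V321L nuclei free of mixtures held 0 Lrrc4c UMIs (which allows up to 179.8 and 53.4 CPM).

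**Figure D1:**
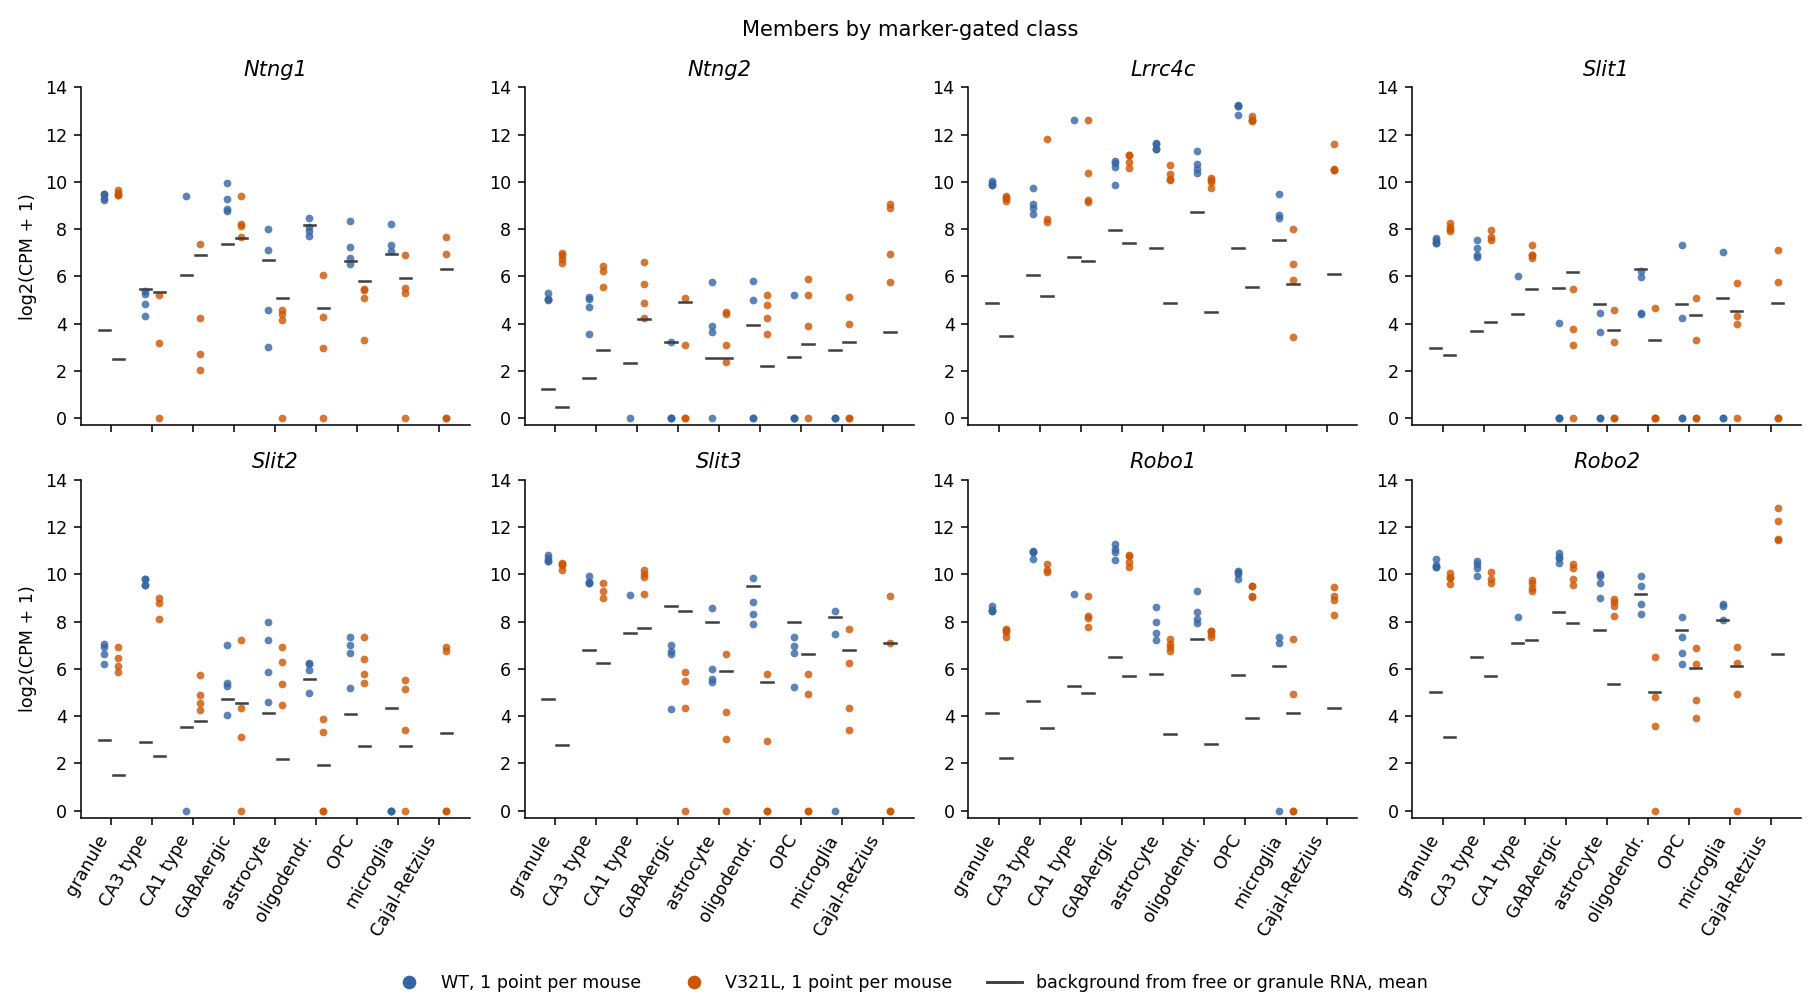
Level of each gene by marker-gated class, on a log2(CPM + 1) axis, with 1 point per mouse that had at least 10 nuclei of the class and a bar at the mean level that free or granule RNA would give. Lrrc4c was highest in OPC nuclei (8931 CPM in WT mice), Robo2 in Cajal-Retzius nuclei (4426 CPM in V321L mice) and Slit3 in granule nuclei (1618 CPM in WT mice), while Slit3 points of most glial classes lie near or under their bars.

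The Slits differed in their levels over the excitatory neurons. Slit1 was found in GCs, at 170, 186, 194 and 171 CPM in WT and 253, 302, 244 and 273 CPM in V321L F1, F2, M1 and M2, and in CA3 type nuclei, at 141 ± 33.1 CPM in WT (SD, n = 4). CA1 type nuclei of V321L mice held 126 ± 21.6 Slit1 CPM (SD, n = 4) against a carry-over of 43.0 CPM. GABAergic nuclei held 2 and 12 Slit1 UMIs in the WT and V321L libraries together, fewer than carry-over would give. Slit2 was highest in CA3 type nuclei, with 896, 892, 741.5 and 748 CPM in WT F1, F2, M1 and M2. Its granule level was 71.8, 97.8, 122 and 130.0 CPM in WT and 86.2, 67.8, 120.2 and 57.8 CPM in V321L mice, and the genotypes overlapped widely. In V321L mice CA3 type nuclei held 410 ± 121 Slit2 CPM (SD, n = 3; M1 had too few nuclei). CA1 type nuclei, nearly all from V321L mice, held 30.2 ± 15.3 Slit2 CPM (SD, n = 4).

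Like Slit1, Slit3 had its highest mean level in granule nuclei. It stood at 1511, 1669, 1785 and 1506 CPM in WT and 1141, 1434, 1360 and 1332 CPM in V321L granule nuclei, with every V321L value under every WT value. At least 1 Slit3 UMI was found in 80.7% to 87.5% of granule nuclei in WT mice. Nuclei with at least 1000 UMIs were also thinned to 1000, and the rest were left out. The share with Slit3 was then 73.7% to 77.9% in WT and 63.2% to 74.8% in V321L mice. CA3 type nuclei held 843 ± 93.8 CPM in WT (SD, n = 4), and CA1 type nuclei 930 ± 255 in V321L mice (SD, n = 4). GABAergic nuclei held 88.3 and 30.1 CPM on average, and OPC nuclei 106 and 20.9, each under its carry-over level. In WT oligodendrocytes the mean of 482 CPM also stood under the 714 CPM of carry-over, and without mixtures 0 Slit3 UMIs were left of 48484.

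Robo1, a Slit receptor, was lower in GCs than in GABAergic and CA3 type nuclei. Its CPM in granule nuclei was 348.5, 349, 354 and 400.4 in WT F1, F2, M1 and M2, and 161, 198, 187 and 207 in V321L mice, with no overlap. GABAergic nuclei held 2028 ± 389 CPM in WT and 1560 ± 255 in V321L mice (means ± SD of 4 mice), and CA3 type nuclei 1876 ± 186 in WT (SD, n = 4). OPC nuclei held 1029 ± 110.1 and 629.6 ± 109 CPM (means ± SD of 4 mice). CA1 type nuclei held 336.5 ± 140.5 CPM in V321L mice (SD, n = 4). The 19 CA1 type nuclei of all WT libraries together held 325 CPM (exact Poisson 95% interval 201 to 497), a range that takes in the WT granule level. Only 3 mice, all V321L, had at least 10 neuroblast or immature granule nuclei. These held 1430, 1407 and 1612 CPM of Robo1 beside 161 to 198 CPM in granule nuclei of the same mice. Ntng1 was at 97.0, 0 and 0 CPM there, beside 692 to 812 CPM in granule nuclei, and Robo2 was at 194, 191 and 75.6 CPM. The 19 such nuclei of all WT libraries together held 1270 CPM of Robo1 (exact Poisson 95% interval 890 to 1759). Their Ntng1 was at 141 CPM (38.5 to 361, 4 UMIs) and their Robo2 at 494 CPM (270 to 829). With mixtures left out, 36 such V321L nuclei held 79 Robo1 UMIs (1104 CPM, exact Poisson 95% interval 874 to 1376). They held 0 Ntng1 UMIs of 71531, which allows up to 41.9 CPM. These nuclei were few, and the 7 carry-over genes could not serve there because they stood at 85.9% to 108% of the granule level.

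Robo2, the second Slit receptor, was spread over all neurons. Cajal-Retzius nuclei of V321L mice held most, at 2906, 4820, 7174 and 2805 CPM, and the 16 such nuclei of all WT libraries together held 100 Robo2 UMIs, or 5344 CPM (exact Poisson 95% interval 4348 to 6500). GABAergic nuclei held 1674 ± 199 CPM in WT and 1063 ± 286 in V321L mice, and CA3 type nuclei 1276 ± 222 in WT (means ± SD of 4 mice). Granule nuclei held 1281, 1271, 1321 and 1610 CPM in WT and 922, 940, 1066 and 764 CPM in V321L mice, again with no overlap. Astrocyte or radial glia nuclei held 817 ± 232 CPM in WT against a carry-over of 201 CPM. Robo2 in WT oligodendrocytes (612 CPM) was close to its carry-over (575.5 CPM), and without mixtures 3 UMIs were left among 49 nuclei.

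GCs differed from the mean of the other classes for most of the genes. Within each mouse the granule level was set against the unweighted mean of the other classes with at least 10 nuclei (5 to 10 classes per mouse), with a two-sided exact sign-flip permutation test over 8 mice, adjusted over the 8 genes. Higher in GCs of 8 of 8 mice were Ntng1 (701 ± 61.5 against 167 ± 114 CPM, SD), Ntng2 (72.4 ± 43.0 against 37.5 ± 34.6), Slit1 (224 ± 50.3 against 49.2 ± 24.1) and Slit3 (1467 ± 201 against 293 ± 103). Lower in GCs of 8 of 8 mice were Lrrc4c (805 ± 188 against 2364 ± 769 CPM, SD) and Robo1 (276 ± 95.7 against 791 ± 191). Each of these 6 had an exact permutation p of 0.00781, the smallest that 8 mice allow, and an adjusted p of 0.0104. Robo2 was higher in GCs of 7 of 8 mice (1147 ± 274 against 829 ± 171 CPM, SD; exact permutation adjusted p = 0.0357), and leaving out any of 7 mice, each but V321L M1, ended that call (adjusted p 0.0536 to 0.0714). For Slit2 the values were 94.2 ± 27.5 against 139 ± 73.4 CPM (SD, n = 8; exact permutation p = 0.125). On the log2(CPM + 1) scale the Slit2 difference turned to +1.34 (exact permutation adjusted p = 0.0268), whereas it was -159 CPM with mixtures left out and -80.2 CPM in thinned nuclei (exact permutation adjusted p = 0.0391 in both), so no direction is given for Slit2.

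The fine order of classes could not be settled by these tests, since pairs with the smallest exact permutation p that their mice allow still did not pass. Classes next to each other in the order of WT means made 48 pairs over the 8 genes. With all 48 pairs adjusted together, 0 passed 0.05, the smallest exact permutation adjusted p being 0.0536, and 18 had an unadjusted p under 0.05. In 10 pairs the difference went in a single direction in every mouse. Among them were Lrrc4c in OPC over astrocyte nuclei (5596 ± 780.1 CPM higher, SD, n = 8), Slit2 in CA3 type over astrocyte nuclei (544 ± 224, n = 7), Slit3 in granule over CA3 type nuclei (727 ± 150.5, n = 7) and Robo1 in OPC over oligodendrocyte nuclei (553 ± 163, n = 8). Neighbours that differed by little beside their spread included Robo1 in oligodendrocyte and granule nuclei (0.977 ± 102 CPM) and Slit2 in OPC and granule nuclei (1.65 ± 53.4 CPM).

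By their profile over 11 classes, in mean log2(CPM + 1), other genes resembled the 8 closely. Over 12043 genes, Pearson's r was highest with Ntng1 for Oprm1 (0.942), the mu opioid receptor, then Ipcef1 (0.919) and Ptchd1 (0.878). For Slit1 these were Tesc (0.975), Zfp831 (0.963) and Vipr1 (0.958), for Slit3 Vmn2r87 (0.946) and Hrk (0.936), and for Slit2 Ak4 (0.895), Cep162 (0.891) and Dram1 (0.887). Lrrc4c was most like Mdga2 (0.93), Lix1l (0.914) and Phactr3 (0.908), and Ntng2 like Cep112 (0.908), 1500011B03Rik (0.9) and Cabin1 (0.891). Robo1 was most like Erc1 (0.902), Gpc1 (0.89) and Rnf11 (0.884), and Robo2 like Gm44899 (0.96), Snph (0.891) and Neu1 (0.886). The 11 classes share libraries, and class depth and carry-over enter every profile, so these are descriptions without a p. Profiles of the Cajal-Retzius, vascular and neuroblast or immature granule classes came from V321L mice only. The CA1 type profile came from 4 V321L mice and 1 WT mouse. Genotype thus also enters these profiles, and its part in the likeness was not tested.

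Among granule nuclei, V321L mice had higher Ntng2 and lower Lrrc4c, Slit3, Robo1 and Robo2 than WT mice. UMIs were summed over the granule nuclei of each mouse and fitted over all genes with edgeR's quasi-likelihood test (TMM scaling, Benjamini-Hochberg adjusted p). Of 12373 genes tested 70.4% were called at 0.05, 38.5% higher and 31.8% lower in V321L, and against this background 7 of the 8 genes were called, 1 higher and 6 lower. A call alone is therefore little more than what most genes showed. Ntng2 rose by 1.28 ± 0.15 on the log2 scale (SE, adjusted p = 4.84e-06). Robo1 had the largest decrease, a log2 fold change of -1.39 ± 0.11 (SE, adjusted p = 4.32e-07), followed by Lrrc4c (-1.08 ± 0.12) and Robo2 (-1.01 ± 0.14). Slit3 (-0.74 ± 0.12) also fell. Slit2 was at -0.78 ± 0.22, but its CPM overlapped between the genotypes and its call was lost when scaled by library size. Slit1 did not pass (0.12 ± 0.11, SE, adjusted p = 0.31).

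Ntng1 and Slit1 depended on how the libraries were scaled. Over all genes the median was 0.11 under TMM and 0.56 when scaled by library size, which called 6678 genes higher and 2189 lower in place of 4768 and 3937. Ntng1 was at -0.30 ± 0.10 (SE, adjusted p = 0.0182) under TMM, and at 0.14 (adjusted p = 0.149) by library size, as the per-mouse CPM above show, so no direction is given for Ntng1. Its call was also lost without V321L F1, F2 or M2 (adjusted p 0.0529 to 0.0731). Slit1 was at 0.57 (adjusted p = 0.000108) by library size, close to the median of all genes, and the Slit2 call was lost (-0.34, adjusted p = 0.19). Relative to the median of all genes, Ntng2 stood above it and Ntng1, Lrrc4c, Slit2, Slit3, Robo1 and Robo2 below it under both scalings. The change of scaling moved these genes and the median by nearly the same amount. A place relative to the median could therefore hardly change, and its agreement under both scalings is no separate support.

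**Figure D2:**
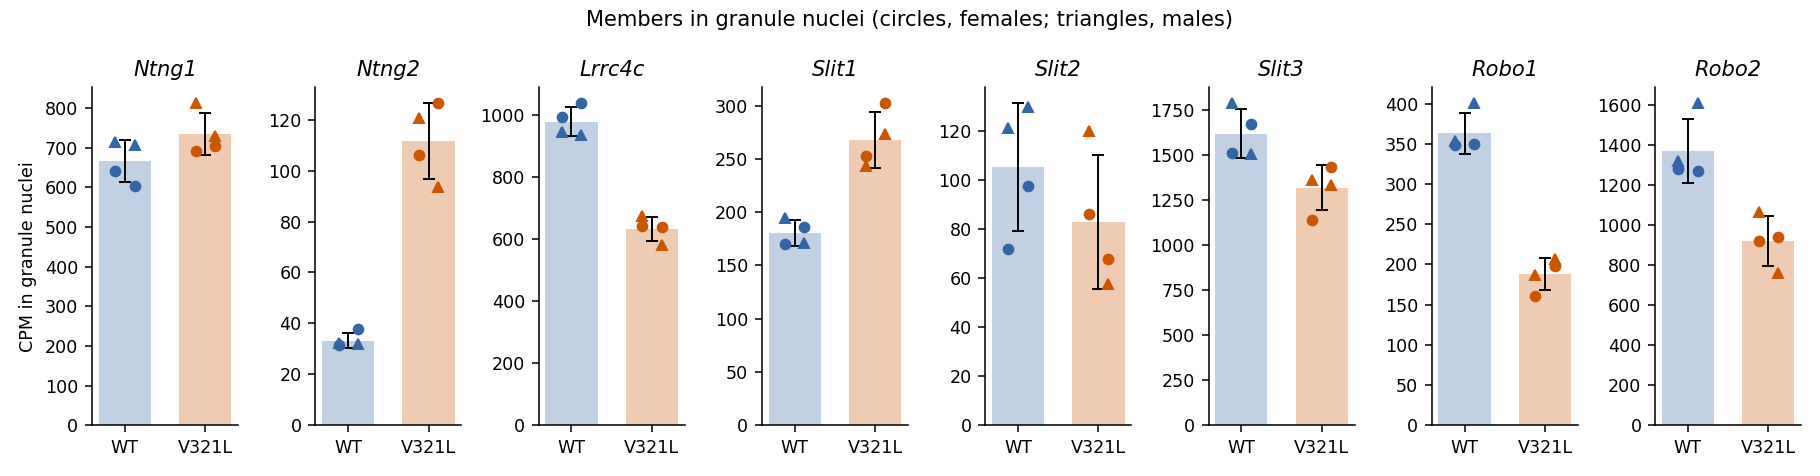
CPM of each gene in granule nuclei, with bars at the mean, error bars of 1 SD over 4 mice and 1 symbol per mouse (circles, females; triangles, males). WT and V321L mice did not overlap for Ntng2, Lrrc4c, Slit1, Slit3, Robo1 and Robo2, while Ntng1 (604 to 715 against 692 to 812 CPM) and Slit2 (71.8 to 130.0 against 57.8 to 120.2 CPM) overlapped.

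The genotype contrast moved with the length of genes over the whole table. Genes were grouped by their RefSeq span, which was matched for 94.4% of genes tested. The median log2 fold change was 1.71 for 2473 genes under 10 kb, 0.54 for 10 to 30 kb, -0.21 for 30 to 100 kb, -0.74 for 100 to 300 kb and -1.11 for 511 genes over 300 kb, of which 96.3% were called lower. Slit2, Slit3, Lrrc4c, Robo1 and Robo2 are all over 300 kb, and their log2 fold changes of -0.74 to -1.39 lie around that median. Ntng1 is also over 300 kb (369923 bases), and its -0.30 lies above the median. Ntng2 (53374 bases) at 1.28 lies above the median of -0.21 of its span group, and Slit1 (149452 bases) at 0.12 above the -0.74 of its own. Of the 3515 genes of 30 to 100 kb, 18.3% were called higher and 41% lower, so a rise like that of Ntng2 was not particular to it. The part of gene length, of depth per nucleus and of the mitochondrial share in these differences was not tested. Depth and mitochondrial share differed between the genotypes. In nuclei thinned to 1000 UMIs, Ntng2 was at 1.41 (edgeR adjusted p = 1.27e-06), but 65.3% of 9262 genes were still called. Thinning thus left most genes called, and the Ntng2 call there is read against that background. Of 87 ribosomal protein genes in unthinned nuclei, 92% were called higher and 5.75% lower in V321L mice. Their median was 3.87 on the log2 scale. What lies behind this rise was not tested.

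**Figure D3:**
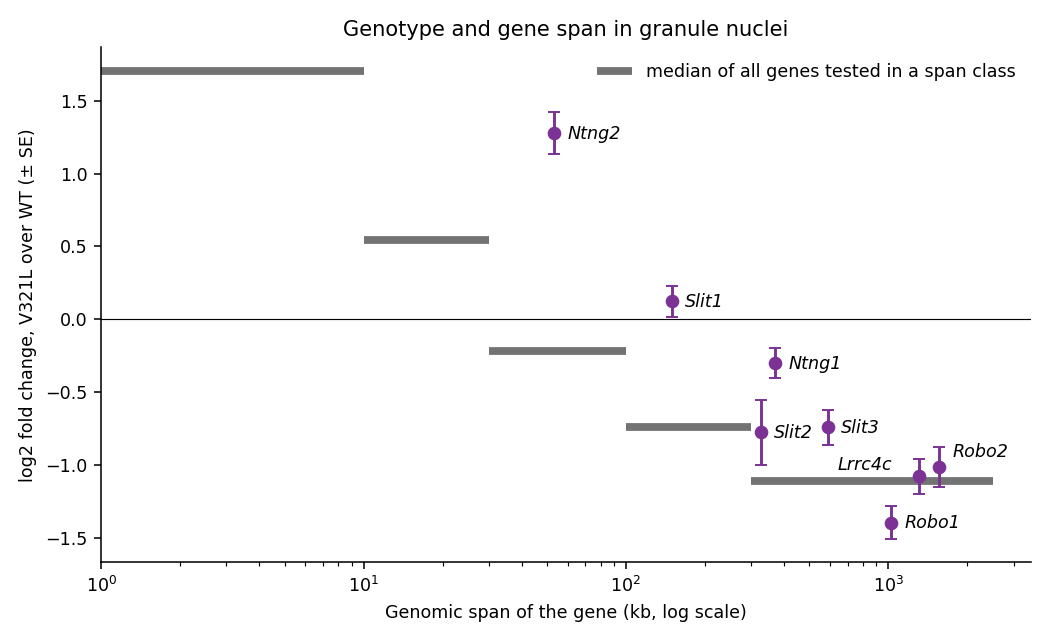
Log2 fold change (V321L over WT, points with SE from edgeR) of each gene in granule nuclei against its genomic span in kb on a log axis, with grey bars at the median of all genes tested in each span class. Ntng2, Slit1, Ntng1, Slit2 and Slit3 lie above the bar of their span class. Lrrc4c and Robo2 lie close to their bar at -1.11, and Robo1 (-1.39) lies below it.

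The contrast of V321L with WT mice did not differ detectably between females and males. In the fit with a genotype by sex term 0 genes of the table were called by edgeR (339 at an unadjusted p under 0.05), and the terms of the 8 genes ran from -0.15 for Slit2 to 0.27 for Lrrc4c, each with an adjusted p of at least 0.998. With 2 mice per sex and genotype such a term has little precision, its SE being 0.20 to 0.44.

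In the other classes the same fit was made where every mouse had at least 10 nuclei, and only members with enough counts entered. In GABAergic nuclei 25.1% of genes were called, and Robo2 fell (-0.61 ± 0.20, SE, adjusted p = 0.0332), while Robo1 (-0.35 ± 0.19), Ntng1 (-0.61 ± 0.33) and Lrrc4c (0.36 ± 0.22) did not pass. These depended on the processing. Lrrc4c passed in thinned nuclei (0.84, adjusted p = 0.0134), Robo1 under the stricter gate (-0.70, adjusted p = 0.0239) and Ntng1 without V321L F1 (-1.10, adjusted p = 0.0085). The Robo2 change was -0.25 in thinned nuclei (adjusted p = 0.615). Its call was also lost under the stricter gate (-0.56, adjusted p = 0.103), by library size (-0.47, adjusted p = 0.0963), and without WT F2, WT M2, V321L F1 or V321L M2 (adjusted p 0.0532 to 0.125). In astrocyte or radial glia nuclei 43.1% were called. Lrrc4c fell by 0.96 ± 0.19 (SE, adjusted p = 0.000192), Robo2 by 0.88 ± 0.21 and Robo1 by 0.80 ± 0.30 on the log2 scale. With mixtures left out Robo2 was at -0.86 and no longer passed (adjusted p = 0.0692). The Robo1 change was -0.24 without WT F2 (adjusted p = 0.61), and its call was also lost by DESeq2 (-0.64, adjusted p = 0.218) and without V321L F1, F2 or M2 (adjusted p 0.0622 to 0.0853). In OPC nuclei 24.3% were called, and neither Lrrc4c (-0.26 ± 0.10, adjusted p = 0.0687) nor Robo1 (-0.46 ± 0.22, adjusted p = 0.12) passed. Lrrc4c passed in OPC nuclei without WT M1 (-0.33, adjusted p = 0.0121), under the stricter gate (-0.32, adjusted p = 0.026) and when thinned (-0.27, adjusted p = 0.0443).

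Oligodendrocytes had the largest log2 fold changes, with 51.8% of genes called. Slit3 was at -4.71 ± 0.71, Robo2 at -4.02 ± 0.58 and Ntng1 at -3.48 ± 0.59 (SE), and these are the genes whose WT level there was close to or under carry-over of granule RNA, which was 24.0% to 76.2% in WT and 1.14% to 8.18% in V321L mice. Leaving out mixtures took these 3 genes out of the test for want of counts. Lrrc4c (-0.65 ± 0.23, SE, adjusted p = 0.027) and Robo1 (-0.93 ± 0.30, adjusted p = 0.0188) also fell. Their WT means of 1768 and 373 CPM stood above carry-overs of 416.5 and 154 CPM, which were 21.7 and 6.11 CPM in V321L mice. Without mixtures, Lrrc4c was at 2269 CPM in 49 WT and 902 in 167 V321L nuclei, and Robo1 at 454 and 169. The part of carry-over in these changes was not tested. The calls of Lrrc4c and Robo1 were both lost with the replicate number as a block (adjusted p = 0.0534 and 0.0617). The Lrrc4c change was -0.43 without WT F2 (adjusted p = 0.138), and its call was also lost without any single V321L mouse (adjusted p 0.0689 to 0.106). The Robo1 change was -0.51 without WT M2 (adjusted p = 0.149), and its call was also lost without V321L M1 (adjusted p = 0.0636).

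Whether the genotype contrast of a gene differed between GCs and another class was tested on the per-mouse log2 ratio of the 2 classes. Over 32 such tests 0 passed, and 10 reached an exact permutation p of 0.0286, the smallest that 4 against 4 mice allow (adjusted p = 0.0914). Lrrc4c in granule against GABAergic nuclei was among them: its log2 ratio was -0.62 in WT and -1.62 in V321L mice. Robo1 in granule against OPC nuclei differed by -0.22 between the genotypes (exact permutation adjusted p = 0.44). Differences in the genotype contrast between classes were therefore not shown.

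Genes around the 8 in the same pathways were taken from a list of 44, of which 38 could be tested in GCs. Of these 6 were higher, 22 lower and 10 neither in V321L GCs, beside 38.5% higher and 31.8% lower over all genes tested. Their median log2 fold change was -0.60 beside 0.11 for all genes tested. For all genes of 100 to 300 kb it was -0.74, and for those over 300 kb -1.11. The part of gene length in these counts was not tested. Among 5 genes that comprise the other NGLs and receptor phosphatases, 1 was higher and 2 were lower. For 18 genes of Robo signalling the counts were 2 higher and 12 lower, and for the 8 netrins and netrin receptors tested 1 and 5. Dcc, the netrin receptor, had the largest decrease among those with a mean of at least 10 CPM (-1.53 ± 0.19, SE, adjusted p = 9.5e-06), followed by Dscam (-1.19 ± 0.14), a homophilic receptor that also binds netrin, and Arhgap32 (-1.16 ± 0.13). Sdc3, a heparan sulfate proteoglycan (0.85 ± 0.24), Cap1, an actin regulator (0.75 ± 0.10), and Lrrc4b, the third NGL (0.70 ± 0.23), were the largest increases under the same limit. Ntn3, a netrin that lay below the limit with a mean of 0.90 CPM in WT and 12.8 CPM in V321L mice, was at 3.37 ± 0.34 (SE), and was chosen for mention after its values were seen. In GABAergic nuclei 0 of 19 such genes were higher and 4 lower, in astrocyte nuclei 2 and 3 of 16, in oligodendrocytes 5 and 7 of 20 and in OPC nuclei 0 and 2 of 14, beside 25.1%, 43.1%, 51.8% and 24.3% of all genes called in either direction.

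Within the granule class the 8 genes were ordered along Camk4, a calcium/calmodulin kinase that the study places toward the hilar side of the granule cell layer, with Ntng1 toward the molecular layer. Nuclei of each mouse were ranked by Camk4 averaged over 30 neighbours, in components computed without Camk4 and the 8 genes, and cut into 5 bins. Mean Camk4 rose from 48.3 to 140 CPM over the bins in WT and from 20.3 to 89.6 CPM in V321L mice, as the ranking set. Ntng1 went the opposite way, from 907 ± 101 to 424 ± 84.1 CPM in WT and from 990.5 ± 77.0 to 431 ± 85.9 CPM in V321L mice (means ± SD of 4 mice). Lrrc4c went from 1210 to 790 CPM in WT and from 774 to 454 CPM in V321L mice. Robo1 rose from 294 to 396 CPM and from 137 to 226 CPM.

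The log2 difference of the highest minus the lowest Camk4 bin was tested with the two-sided exact sign-flip permutation test over 8 mice, and all 8 genes passed (adjusted p = 0.0125 or 0.0156). Genes outside the 8 were not tested, so the share of all genes that would pass is not known. Lower toward high Camk4 were Ntng1 (-1.16 ± 0.28, SD, 8 of 8 mice), Slit2 (-0.86 ± 0.52, 8 of 8), Ntng2 (-0.70 ± 0.23, 8 of 8), Lrrc4c (-0.69 ± 0.26, 8 of 8) and Robo2 (-0.34 ± 0.18, 7 of 8). Higher toward high Camk4 were Robo1 (0.59 ± 0.39, 7 of 8 mice), Slit1 (0.39 ± 0.25, 7 of 8) and Slit3 (0.29 ± 0.18, 8 of 8). In unthinned nuclei Ntng1 and Lrrc4c thus both fell along this order, and the Slits and the Robos each divided. Depth moved along the same order, the median UMIs of a nucleus rising from 1160 to 2671 in WT and from 3375 to 4659 in V321L mice. With nuclei thinned to 1000 UMIs before the components were computed, 4 genes passed: Slit2 (-0.41), Lrrc4c (-0.38), Slit3 (0.24) and Robo2 (-0.12). Ntng1 was then at -0.47 (exact permutation adjusted p = 0.0625), Slit1 at 0.34 (0.0625), Robo1 at 0.25 (0.107) and Ntng2 at -0.10 (0.69), with the same signs.

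**Figure D4:**
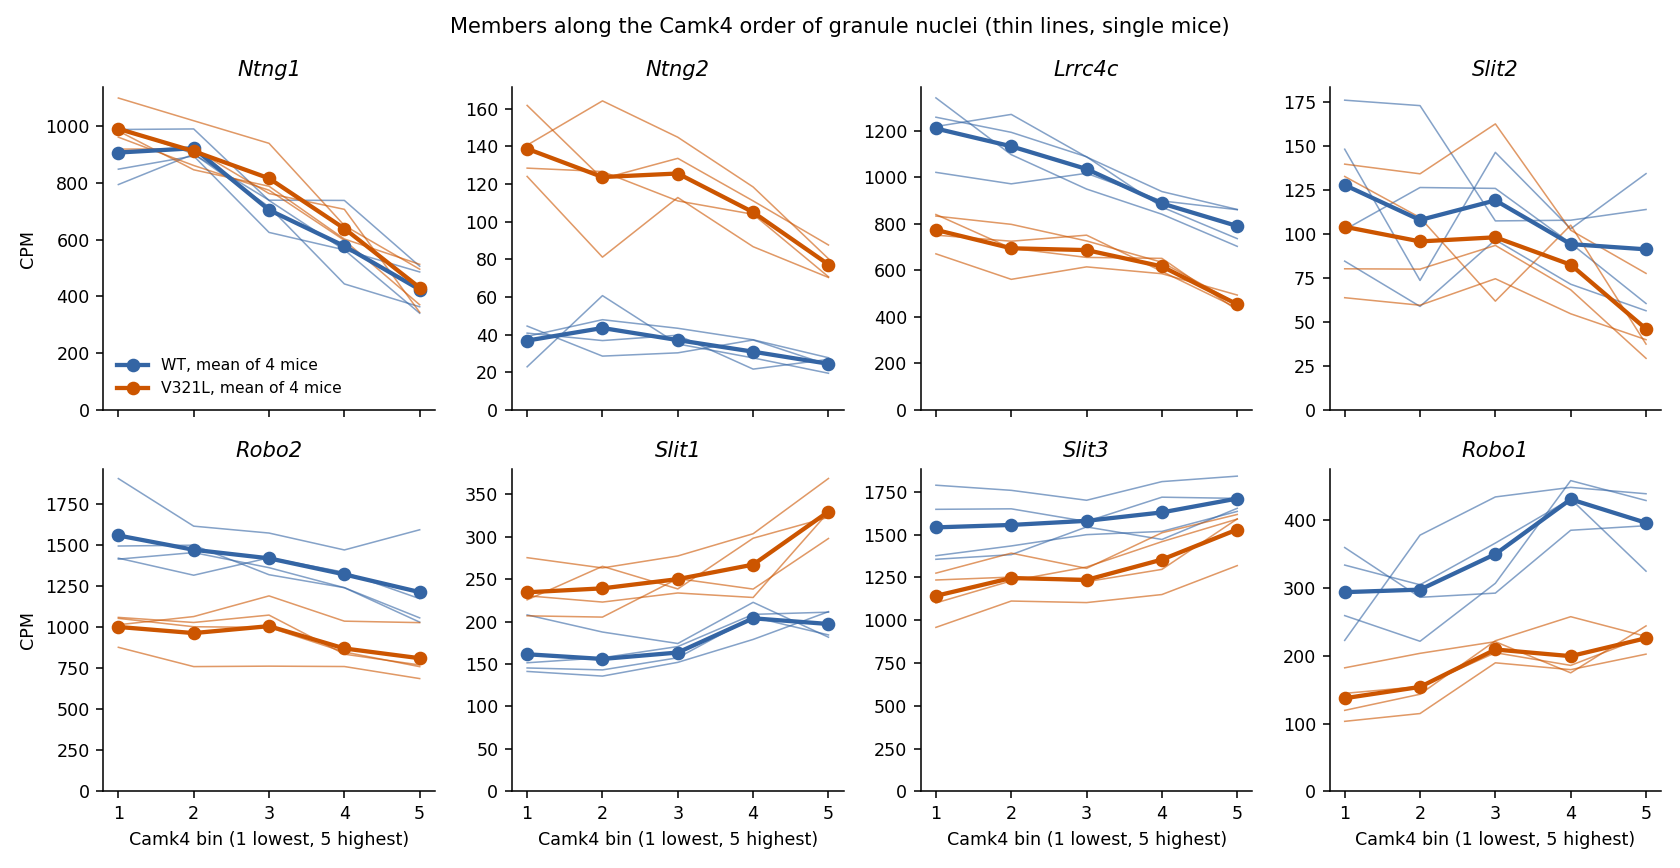
CPM of each gene in 5 bins of granule nuclei ordered by Camk4 from lowest to highest, with thin lines for single mice and thick lines with points for the mean of 4 mice per genotype. Ntng1 fell from 907 to 424 CPM in WT and from 990.5 to 431 CPM in V321L mice, while Robo1, Slit1 and Slit3 were higher in bin 5 than in bin 1.

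No difference of the gradient between V321L and WT passed over the 8 genes. The nearest was Slit3, with a gradient of 0.16 ± 0.13 in WT and 0.43 ± 0.09 in V321L mice (means ± SD of 4 mice; by the exact permutation test p = 0.0286, the smallest allowed, adjusted p = 0.229). For Ntng1 the gradients were -1.11 ± 0.36 and -1.22 ± 0.22 (exact permutation adjusted p = 0.72).

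How unevenly a gene was spread over neighbouring granule nuclei was described by Moran's I, which is high where neighbours hold like levels, in components that left these genes out. Ntng1 ranked 18 to 219 over the 8 mice among the 8616 to 12779 genes measured in a mouse, with a median rank of 43. Median ranks were 147 for Lrrc4c, 420 for Robo1 and 483 for Slit3, and they were 784.5 for Slit2, 799.5 for Robo2 and 1008 for Slit1. Ntng2 ranked lowest at 4100. For comparison, Camk4 had a median rank of 220.

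Granule nuclei with a UMI of Nrg1, the gene that V321L changes, differed from those without in 6 of the 8 guidance genes. How many other genes differ in the same split was not tested, so the count is not particular to guidance genes. Nuclei with at least 1000 UMIs were thinned to 1000, which matched total UMIs and no other property of the nuclei. Those with fewer were left out, which kept 780 of 1302 granule nuclei in WT M1 and 1173 of 1183 in V321L F2. Of the nuclei kept, 212 to 686 per mouse held Nrg1. Ntng1 was at 871, 808, 927 and 952 CPM in WT nuclei with Nrg1 (F1, F2, M1 and M2) and at 496, 522, 607 and 682 CPM in those without. In V321L mice the values were 788, 886, 962 and 976 against 637, 604, 745 and 637 CPM. Nuclei with Nrg1 were higher in Slit2 (log2 difference 0.71 ± 0.19, SD), Ntng1 (0.55 ± 0.16), Lrrc4c (0.45 ± 0.18) and Robo2 (0.22 ± 0.06), and lower in Robo1 (-0.46 ± 0.18) and Slit1 (-0.32 ± 0.15), each in 8 of 8 mice. Each had an exact permutation p of 0.00781 and an adjusted p of 0.0446 over 80 tests of 10 subtype genes.

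Over all 10 subtype genes 14 of the 80 tests passed. Nuclei with Sorcs3, a sorting receptor, were higher in Lrrc4c (0.69 ± 0.26, SD) and Ntng1 (0.59 ± 0.18). Nuclei with Il1rapl2, a synaptic adhesion protein, were lower in Ntng1 (-0.84 ± 0.55), Lrrc4c (-0.54 ± 0.39) and Robo2 (-0.24 ± 0.15). Ntng1 was also lower in nuclei with Ror1 (-0.43 ± 0.26), Camk4 (-0.38 ± 0.30) and Calb1 (-0.32 ± 0.16). Penk, an opioid precursor, could be split in only 4 mice, where the difference was 0.52 ± 0.34 for Ntng1 and 0.82 ± 0.28 for Lrrc4c, higher in 4 of 4 (exact permutation p = 0.125, the smallest that 4 mice allow). At 500 UMIs per nucleus 0 tests passed and without thinning 54 did. Under the stricter gate 14 passed, but Slit1 by Nrg1 (-0.28, adjusted p = 0.0865), Ntng1 by Calb1 (-0.22, 0.0592) and Robo2 by Il1rapl2 (-0.14, 0.205) did not by the exact permutation test. Leaving out any mouse left 0, since 7 mice allow no exact permutation p under 0.0156.

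The guidance genes were also split by each other, a comparison added after the data had been seen. Thinned granule nuclei with an Ntng1 UMI (342 to 732 per mouse) were higher in Slit2 (log2 difference 0.47 ± 0.37, SD), Lrrc4c (0.32 ± 0.14) and Robo2 (0.21 ± 0.08), each in 8 of 8 mice. They were lower in Robo1 (-0.32 ± 0.22, 7 of 8 mice), Slit1 (-0.12 ± 0.09, 8 of 8) and Slit3 (-0.09 ± 0.06, 7 of 8). Nuclei with Robo1 were lower in Ntng1 (-0.25 ± 0.19, 8 of 8 mice) and Lrrc4c (-0.15 ± 0.12, 7 of 8). These 8 of 14 tests, made for the guidance genes only, passed (exact permutation adjusted p 0.0219 to 0.041). Leaving out single mice gave 5 (without WT F2, WT M2, V321L F1, V321L F2 or V321L M2) to 9. Under the stricter gate 3 passed.

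For promoter accessibility in granule nuclei no genotype difference passed. It was counted in peaks within 1000 bases of the start sites in the files, per 1000000 counts in peaks. Lrrc4c was at 56.0 ± 5.44 in WT and 59.3 ± 10.1 in V321L mice, Ntng2 at 52.2 ± 2.8 and 57.3 ± 10.2, Slit3 at 27.8 ± 1.25 and 34.5 ± 12.6, and Slit1 at 25.4 ± 3.76 and 29.8 ± 15.1 (means ± SD of 4 mice). Slit2 was at 11.1 ± 1.25 and 13.4 ± 6.49, and Robo2 at 9.25 ± 2.95 and 13.8 ± 6.67. With RefSeq start sites added, Robo2 was at 40.9 ± 4.36 and 47.8 ± 15.4 (exact permutation adjusted p = 0.629). Over the 6 genes with a peak in all 8 libraries every exact permutation adjusted p was 0.629. Ntng2 RNA thus rose in V321L GCs without a detectable difference in these counts, whose SD in V321L mice was 10.2. The peak counted for Ntng2 did not cover at least 150 bases of its RefSeq promoter window in any library. Ntng1 had a peak in 4 libraries and Robo1 in 7, and neither was tested. The authors called peaks library by library, so these counts also move with how much was called.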

How the data were processed

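Nuclei of microdissected DG from 4 WT and 4 V321L mice were profiled with the 10x Multiome kit. The authors counted UMIs per gene and fragments per peak with Cell Ranger on mm10, and deposited raw whole-number counts for every barcode, with no normalization. The submitters' processing notes also name Seurat and Signac. Peaks were called per library. The counting annotation is not given in the sources used here.

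Barcodes were kept within the study's stated limits on UMIs, genes and mitochondrial share, and 609 doublets called by Scrublet (scanpy 1.11.5) were removed. Classes came from fixed marker genes by UMIs per nucleus, with class profiles fitted within each genotype. UMIs were summed per mouse and class, since nuclei are not replicates. Total RNA UMIs per library were 4326426 to 23582057. Genotypes were compared with edgeR 4.0.16 in R 4.3.3 (quasi-likelihood, TMM, filterByExpr, Benjamini-Hochberg over all genes tested, threshold 0.05). Other tests were two-sided exact permutation tests over mice in Python 3.11.15 with SciPy 1.17.1. Log ratios used a prior of 0.5 counts. DESeq2 1.42.0 was an alternative, beside other scalings, filters, gates, depths and left-out mice. Floors for counts of 0 are 3 UMIs. Intervals are 95% and, like floors, cover counting error only. Where depth mattered, nuclei were thinned to 1000 UMIs, and those with fewer were left out, which removed more WT than V321L granule nuclei. Promoter sequences are from RefSeq, which matched 9 promoters for 7 members. The scripts were tested on simulated data.

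The members, marker lists and pathway list were chosen with earlier results of these data known. All 8 members are named. Of the pathway list, the 3 called genes per direction with the largest change and a mean of at least 10 CPM are named, and for each member the 3 genes most like it over the classes. For Slit3, 1 of these is not reported here. At the start of the sorting 36 WT and 37 V321L nuclei led in mossy cell markers, but only 8 and 8 were left in that class at the end, too few to use. The CA3 type class went from 9 to 399 nuclei in WT and from 30 to 153 in V321L mice. For the CA1 type class the numbers were 38 to 19 in WT and 221 to 236 in V321L mice. Where the other mossy-like nuclei went was not tested. Same-numbered mice of the 2 genotypes are different animals. Their deviations from the group means correlated at 0.05, 0.27, -0.12 and 0.04 (F1, F2, M1 and M2), so the numbers were not taken to pair them.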

Additional observations from a re-analysis of the deposited data

Results flagged for a closer look

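Of 65 groups of 4 mice tested for a sample far from the others, 8 were flagged, where chance flags about 1 in 20. Each is a single mouse beside the range of the other 3 of its group, in CPM. In WT granule nuclei, Ntng2 was 37.8 in F2 beside 31.4 to 32.2, Robo1 was 400.4 in M2 beside 348.5 to 354, and Robo2 was 1610 in M2 beside 1271 to 1321. In WT CA3 type nuclei, Robo1 was 1598 in M1 beside 1951 to 1992. In WT OPC nuclei, Lrrc4c was 7338 in M1 beside 9332 to 9637. V321L M1 held the other 3. In its CA1 type nuclei Lrrc4c was 6241 beside 572 to 1329 and Ntng1 was 164.7 beside 3.15 to 17.9, and in its Cajal-Retzius nuclei Lrrc4c was 3129 beside 1453 to 1505. V321L M1 gave 113 of the 236 V321L nuclei of the CA1 type. The 10 CA1 type nuclei of WT F2 held 6224 CPM of Lrrc4c as well.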

How the results depend on the processing

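For granule nuclei the count of called genes was 8705, 5577 with males only, and 10202 of 24666 genes with no filter on low counts. With the replicate block it was 8549. The block ended no call of the 8 genes but those of Lrrc4c and Robo1 in oligodendrocytes. Of the same-numbered mice, F2 alone correlated best with its own number. Under library size Ntng1 turned to 0.14. In the other classes the counts moved with depth, gate and mixtures: GABAergic from 617 to 352 (stricter gate) and 62 (thinned), astrocyte from 979 to 473 (thinned) and 215 (mixtures left out), oligodendrocyte from 1138 to 405 and 153, and OPC from 304 to 134 and 76. GABAergic Lrrc4c turned to -0.059 under the stricter gate. Slit2 in granule against other classes turned to 1.34 on the log2 scale. Thinning left 4 of 8 Camk4 gradients. Subtype tests passed in 0 cases at 500 UMIs and 54 without thinning. Splits by Ntng1 or Robo1 passed in 5 at 500 UMIs and 3 under the stricter gate, beside 8. Promoter differences, none of which passed, turned to -1.16 for Ntng2 and -0.76 for Slit1 in thinned nuclei. The cause of these changes was not tested. The alternatives without mixtures and the splits by Ntng1 or Robo1 were chosen after seeing the data, and GABAergic nuclei could not be fitted without mixtures. Of the values of single genes outside the leave-one-out settings, 314 kept their direction and side of the threshold, 42 lost a call and 7 gained one.

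Leaving out each mouse in turn gave 8196 to 9083 calls in granule, 552 to 808 in GABAergic, 814 to 1384 in astrocyte, 1114 to 1318 in oligodendrocyte and 216 to 403 in OPC nuclei, 6 to 7 in granule against other classes, 0 to 0 of the subtype tests and 5 to 9 of the splits by Ntng1 or Robo1. Promoter differences then ranged from -1.34 to 6.62 for Lrrc4c, -1.27 to 9.41 for Slit1 and -0.41 to 4.25 for Slit2.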
